A study of Mus musculus with 24 samples.

Results

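Spheres of lacrimal gland stem cells (LGSCs) kept in culture for 14 days were compared with spheres kept for 10 days, the last step of a culture series in which the spheres were left to differentiate. All spheres were at passage 2 and came from the lacrimal gland (LG) of C57BL/6 mice aged 6 to 8 weeks. They grew from single cells in Matrigel mixed with a serum-free medium, LGSCM, which holds N2, B27, EGF, FGF10, Wnt3A and the ROCK inhibitor Y-27632. Both groups shared this strain, passage and medium, and by the labels they differed in the time in culture alone. Each group had 3 libraries of poly-A selected RNA, numbered 1 to 3, so that the comparison used 6 samples of 24. The libraries were paired by replicate number, and the labels do not say whether a number stands for an animal, a culture or a well. The p-values below therefore measure the spread between these 3 pairs, which may be technical. Of 63862 genes listed in each file, 15759 had a mean of at least 0.5 FPKM (a read level scaled to gene length and library depth, a unit read here from the values) over the 6 libraries and were compared. Libraries of days 5 and 7 and of adult LG are given as context.

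The LG makes the watery layer of the tear film. Its acini secrete tear proteins and its ducts carry and modify the fluid, while basal cells and the contractile myoepithelial cells lie around both. Stem or progenitor cells of glandular epithelia are usually recognised by basal keratins such as Krt5 and Krt14, by the transcription factor Trp63 and by Nes. When such cells stop cycling, genes of the mitotic programme, which are transcribed late in the cell cycle, and genes of DNA replication, which are transcribed before and during S phase, are usually lower in bulk RNA. In bulk samples, fewer cells of a type and less RNA per cell cannot be told apart.

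The 6 libraries held 7201131 to 7897255 recovered reads each, and the totals used to scale them were 7701588 to 8911973 reads. In adult LG 1 and 2 the totals were 2412372 and 3170438, against 6434711 and 8139823 recovered reads. Levels in adult LG 1 and 2 are therefore on a higher scale than those of the spheres. The spheres carried epithelial transcripts, with Cdh1 (E-cadherin) between 388 and 916 FPKM and Krt17 between 1580 and 3079 FPKM. Of the 10 epithelial markers, Epcam and Krt8 were listed at 0 in all 14 libraries read, as was Gapdh, so a 0 in these files is not read as absence. The summed level of 9 fibroblast markers was 0.381 to 1.00 FPKM at day 10 and 1.20 to 3.39 FPKM at day 14, against 177 to 346 FPKM in adult LG. The summed level of 10 leukocyte markers was 1.19 to 1.78 FPKM at day 10 and 0.894 to 1.89 FPKM at day 14, against 115 to 267 FPKM in adult LG. The sum of 8 endothelial markers was nearly all Flt1, and that of 7 myoepithelial markers was nearly all Acta2 in replicates 1 and 3, with Myh11 listed at 0. In replicate 2 the myoepithelial sum was 1.87 FPKM at day 10 and 3.97 FPKM at day 14, of which Acta2 made 1.02 and 2.71 FPKM.

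The libraries of replicate 2 stood apart at both days. Over all genes compared, the correlation of log2(FPKM + 1) was 0.956 to 0.969 between libraries of replicates 1 and 3, and 0.889 to 0.912 between a replicate 2 library and any other. The 2 libraries of replicate 2 had a correlation of 0.956 with each other. Krt18, a keratin of simple epithelia, was 176 FPKM in replicate 2 and 1143 to 1260 FPKM in replicates 1 and 3 at day 10. At day 14 it was 152 FPKM in replicate 2 and 1142 to 1734 FPKM in the other two. Krtdap, a product of stratified squamous epithelium, was 1728 FPKM in replicate 2 at day 10 and at most 11.9 FPKM in the others. These genes were named after their values were seen.

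**Figure D1:**
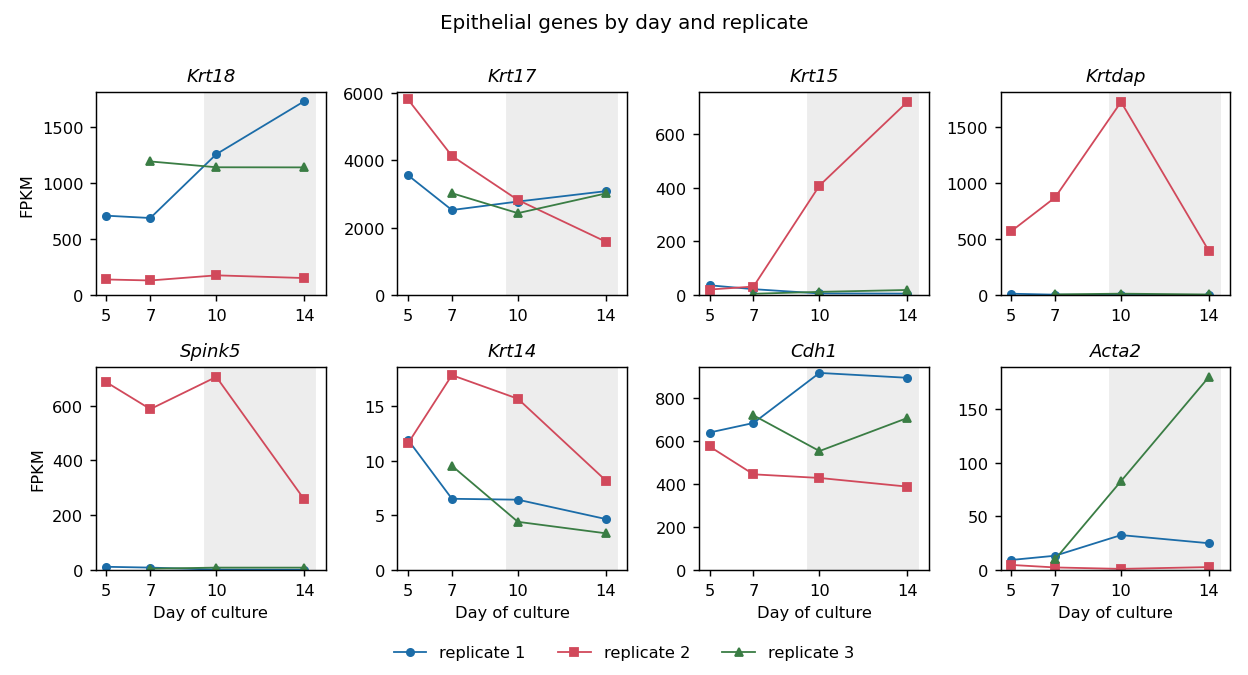
FPKM of 8 epithelial genes (y axes, from 0) by day of culture (x axes), 1 line per replicate, with days 10 and 14 shaded. Krt18 is lower, and Krt15, Krtdap and Spink5 are higher, in replicate 2 than in replicates 1 and 3 at both shaded days, while Acta2 reaches 180 FPKM in replicate 3 at day 14.

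No gene differed between day 14 and day 10 after adjustment. In limma with the replicate number as a block, 0 of 15759 genes (0.0%) had a Benjamini-Hochberg adjusted p under 0.05 in either direction, and the smallest adjusted p was 0.918. At an unadjusted p under 0.05, 417 genes (2.65%) were higher and 385 (2.44%) were lower at day 14, 802 genes or 5.09% in all. Limma-voom on the recovered reads gave 0 of 11712 genes after adjustment and 734 at an unadjusted p under 0.05. The share of all genes at that p, in both directions together, was 2.56% without the replicate block, and 11.9%, 3.82% and 2.96% without pairs 1, 2 and 3, against which the list counts of these fits are to be read. Throughout, a log2 difference is the mean over the 3 pairs of log2(FPKM + 1) at day 14 minus day 10, and its standard error had a median of 0.20 over all genes. The median log2 difference of all genes was -0.002. All counts of list members below are of genes that did not pass the adjusted threshold, and are descriptions of lists.

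**Figure D2:**
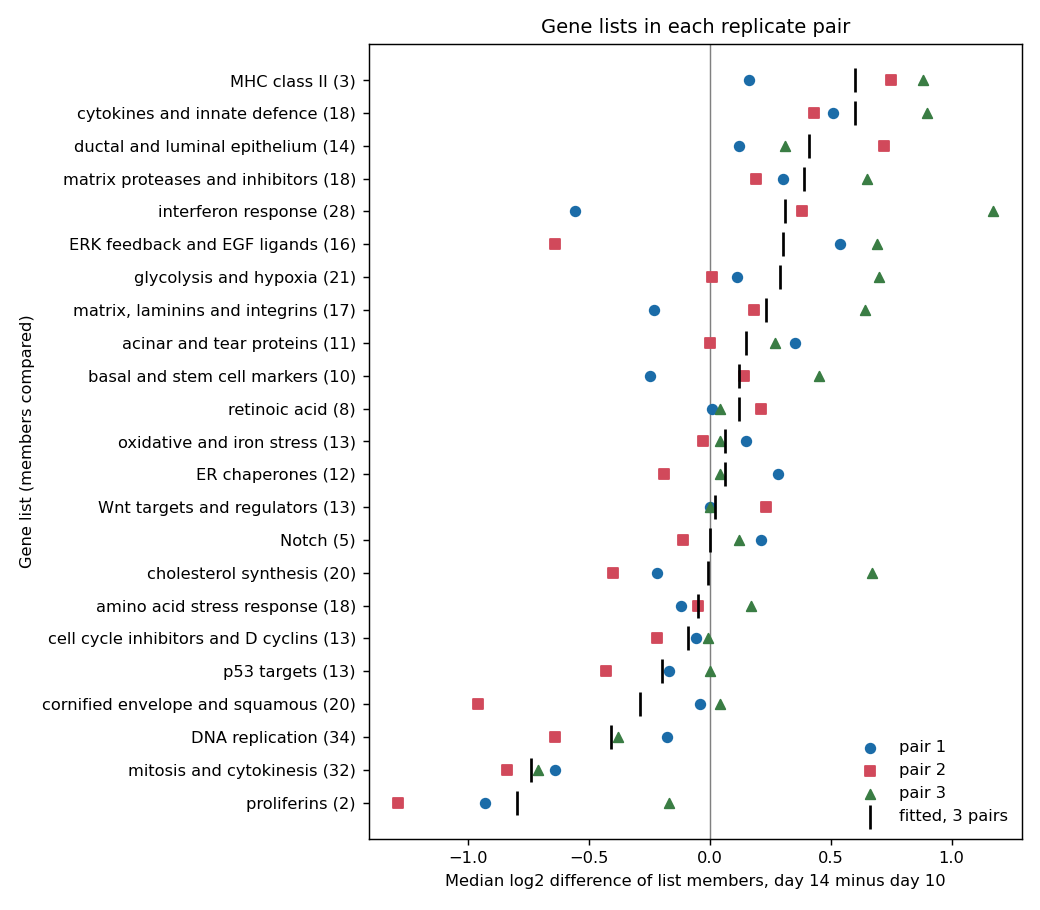
Median log2 difference (x axis, day 14 minus day 10) of the members of each of 23 gene lists (y axis, with the number of members compared), as 1 coloured point per replicate pair and a black bar for the fitted value. The mitosis list lies at -0.64, -0.84 and -0.71 in the 3 pairs, while the interferon list runs from -0.56 in pair 1 to 1.17 in pair 3.

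Genes of mitosis and cytokinesis were lower at day 14 in every replicate. Of 48 genes in the list, 32 were above the filter on low values, and all of these 32 were lower in all 3 pairs, against 11.1% of all genes. Of the 32, 26 were lower at an unadjusted p under 0.05, against 2.44% of all genes, and 18 were lower by at least 0.5 in each pair, against 0.565%. In 15 of them the 3 day 14 libraries lay below the 3 day 10 libraries, against 3.25% of all genes. The median log2 difference of the 32 was -0.74. The summed level of the list was 417, 892 and 519 FPKM in replicates 1 to 3 at day 10 and 296, 383 and 321 FPKM at day 14. It had been 1173 and 1242 FPKM in the 2 libraries of day 5 and 633 to 1152 FPKM at day 7, and was 89.5 to 108 FPKM in adult LG, so that the day 14 spheres still lay above the gland. Replicate 2 was highest at day 10 and the 3 replicates lay closer together at day 14.

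Plk1, the polo-like kinase that drives entry into and exit from mitosis, was 22.1, 59.1 and 29.0 FPKM in replicates 1 to 3 at day 10 and 15.7, 15.8 and 12 FPKM at day 14. The groups did not overlap, and the 3 day 14 values were close to one another while replicate 2 was high at day 10. Its log2 difference was -1.17 (SE 0.29, 95% interval -1.90 to -0.43). Cdc20, the activator of the anaphase-promoting complex, was 49.4, 171 and 65.2 FPKM at day 10 and 30.2, 51.4 and 29.3 FPKM at day 14. Its pair differences were -0.70, -1.72 and -1.13, although replicate 2 at day 14 was still above replicate 1 at day 10. Kif2c, a microtubule-depolymerising kinesin of the centromere, had the smallest unadjusted p of the list, 0.00135. It was 4.74, 12.8 and 8.48 FPKM at day 10 and 2.06, 5.56 and 3.39 FPKM at day 14, a log2 difference of -1.03 (SE 0.17). Its pairs were nearly alike, at -0.91, -1.07 and -1.11.

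The kinetochore motor Cenpe was 4.80, 11.4 and 7.47 FPKM at day 10 and 2.3, 4.69 and 3.18 FPKM at day 14. Its groups did not overlap, and its log2 difference was -0.98 (SE 0.17). Ccnb1, the B-type cyclin of the mitotic kinase, was 12.5, 28.3 and 18.1 FPKM at day 10 and 7.56, 12.6 and 7.42 FPKM at day 14. Its day 14 value in replicate 2 just passed its day 10 value in replicate 1, and its log2 difference was -0.98 (SE 0.19). Nusap1, a spindle protein, was 7.52, 14.6 and 9.54 FPKM at day 10 and 4.01, 7.84 and 4.48 FPKM at day 14, with a log2 difference of -0.84 (SE 0.16). The spindle and kinetochore genes Ndc80, Nuf2, Hmmr, Sgo1, Ska3 and Kif4 had log2 differences between -0.90 and -0.74. The 6 members that missed the unadjusted threshold were Birc5, Bub1, Cdk1, Top2a, Cks2 and Tpx2, with log2 differences of -0.46 to -0.26. In Tpx2 the pair 1 difference was only -0.003.

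The direction of the list did not rest on replicate 2. Without pair 2, 29 members were compared, 29 were lower and 18 had an unadjusted p under 0.05, with a median of -0.70. With each replicate number at both days, leaving out the block cannot change the differences. Without it, 20 of 32 had an unadjusted p under 0.05. Another 16 members were below the filter, among them Ccna2, Aurka, Aurkb and Foxm1. Mki67, the proliferation marker that the study used, was listed at 0 in all 14 libraries and gives no measurement here.

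**Figure D3:**
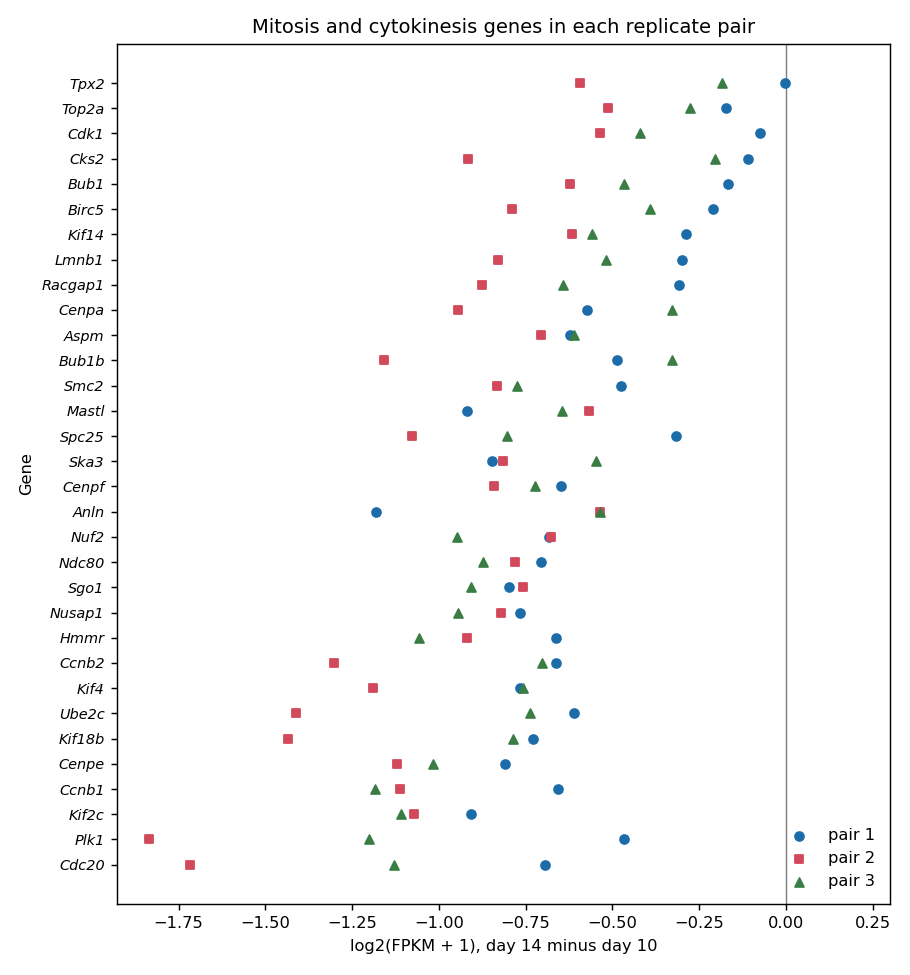
Difference in log2(FPKM + 1) between day 14 and day 10 (x axis) for each of the 32 compared mitosis and cytokinesis genes (y axis), 1 point per replicate pair. All points lie below 0, from -1.84 for Plk1 in pair 2 to -0.003 for Tpx2 in pair 1.

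The promoters of the mitosis genes shared short motifs that had no part in choosing the list. In mammals, many promoters of late cell cycle genes hold a CHR element, TTTGAA, often a short way downstream of boxes with the letters CCAAT, while promoters of replication genes often hold E2F motifs such as TTCCCGC. The windows ran from 250 bases before to 50 bases after the start of each gene in RefSeq, were read on both strands, and no pair of these motifs overlapped in the windows shown. A window was found for 31 of the 32 mitosis genes, and 21 of these genes (67.7%) held the CHR, against 14.4% of 6846 protein-coding genes compared and 17.9% of all 32851 windows. The CCAAT box was held by 24 of 31 (77.4%), against 43.0% of the protein-coding genes and 37.4% of all windows. Both together were held by 17 of 31 (54.8%), against 6.09% of the protein-coding genes and 6.95% of all windows. The E2F motif was held by 0 of 31, against 9.52% and 4.6%. In the DNA replication list the pattern differed: of 29 genes with a window, 13 (44.8%) held the E2F motif, 4 (13.8%) the CHR and 16 (55.2%) the CCAAT box. A match is a description of the letters, not of a site in use.

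The 4 windows below are those of Plk1, Cdc20 and Ccnb2, which hold both the CHR and the CCAAT box, and of Rrm1, a replication gene that holds the E2F motif. They are shown so that the spacing can be seen, are written 5′ to 3′ on the strand of the gene, and come from RefSeq on build GRCm38.p6, which is not the build named for the deposited values. Capitals mark the CHR, the CCAAT box and the E2F motif. Plk1 lies at chr7:122159185-122159484 (plus strand), Cdc20 at chr4:118437294-118437593 (minus strand), Ccnb2 at chr9:70421505-70421804 (minus strand) and Rrm1 at chr7:102441445-102441744 (plus strand).
Plk1: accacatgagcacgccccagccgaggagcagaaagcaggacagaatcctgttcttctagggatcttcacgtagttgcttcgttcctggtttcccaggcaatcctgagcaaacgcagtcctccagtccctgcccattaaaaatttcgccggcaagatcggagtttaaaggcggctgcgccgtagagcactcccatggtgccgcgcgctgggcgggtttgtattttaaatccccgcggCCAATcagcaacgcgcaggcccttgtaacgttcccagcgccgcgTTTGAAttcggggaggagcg
Cdc20: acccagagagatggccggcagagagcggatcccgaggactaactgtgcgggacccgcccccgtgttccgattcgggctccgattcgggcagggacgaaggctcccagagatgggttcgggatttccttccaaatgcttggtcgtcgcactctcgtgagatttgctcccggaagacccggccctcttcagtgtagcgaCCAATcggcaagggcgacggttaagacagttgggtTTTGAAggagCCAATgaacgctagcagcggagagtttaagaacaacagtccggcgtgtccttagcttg
Ccnb2: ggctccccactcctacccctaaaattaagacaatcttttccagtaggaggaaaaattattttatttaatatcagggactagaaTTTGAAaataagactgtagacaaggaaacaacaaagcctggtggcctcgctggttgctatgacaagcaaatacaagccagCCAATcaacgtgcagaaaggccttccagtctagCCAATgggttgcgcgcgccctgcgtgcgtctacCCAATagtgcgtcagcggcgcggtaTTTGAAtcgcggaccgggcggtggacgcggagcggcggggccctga
Rrm1: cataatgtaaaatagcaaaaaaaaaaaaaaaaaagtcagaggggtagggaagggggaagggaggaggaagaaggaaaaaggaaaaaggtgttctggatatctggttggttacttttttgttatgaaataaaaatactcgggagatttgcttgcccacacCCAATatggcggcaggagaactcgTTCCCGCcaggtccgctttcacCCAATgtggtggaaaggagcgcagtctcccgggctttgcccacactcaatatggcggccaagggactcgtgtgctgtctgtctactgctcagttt
Plk1 and Cdc20 hold 1 CHR each and Ccnb2 holds a pair of them, and each has a CCAAT box upstream of its last CHR. Rrm1 holds 1 E2F motif between a pair of CCAAT boxes.

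Genes of DNA replication were also lower, by less and less evenly. Of 49 genes, 34 were compared and 25 were lower in all 3 pairs, against 11.1% of all genes. Of the 34, 15 were lower at an unadjusted p under 0.05, against 2.44% of all genes. In each pair 4 were lower by at least 0.5, against 0.565% of all genes, and 8 were lower without overlap, against 3.25%. The median log2 difference was -0.41, and the pair medians were -0.18, -0.64 and -0.38. The count at an unadjusted p under 0.05 rested on replicate 2, replicate 3 and the block: it was 5 without the replicate block, 2 without pair 2, 3 without pair 3 and 16 without pair 1. The direction did not rest on a single pair, since 30 or 31 members were lower without pair 1, 2 or 3.

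Rrm2, the regulatory subunit of ribonucleotide reductase that makes deoxynucleotides, was 21.5, 84.3 and 34.3 FPKM at day 10 and 11, 36.3 and 18.0 FPKM at day 14. Replicate 2 was high at both days and the groups overlapped, but each replicate was lower by a like amount, and the log2 difference was -1.0 (SE 0.17, unadjusted p = 0.00156). Its partner subunit Rrm1 was 14.7, 33.6 and 17.8 FPKM at day 10 and 9.14, 19.0 and 11.6 FPKM at day 14, a log2 difference of -0.66 (SE 0.16). The primase subunit Prim1 was 5.76, 16.6 and 8.37 FPKM at day 10 and 2.79, 8.89 and 4.67 FPKM at day 14, a log2 difference of -0.80 (SE 0.16). In both, replicate 2 was highest at each day and the groups overlapped. Ticrr, a factor for the firing of replication origins, was 1.81, 3.69 and 2.17 FPKM at day 10 and 0.886, 1.65 and 0.986 FPKM at day 14, without overlap. The helicase subunit Mcm5 was 22.1, 62.5 and 32.4 FPKM at day 10 and 17.1, 24.6 and 16.3 FPKM at day 14. Its pair differences, -0.35, -1.31 and -0.95, were less alike than those of Rrm2. Mcm3 and Mcm4 had log2 differences of -0.64 and -0.56. Mcm6 and Mcm7, at 0.866 to 2.12 FPKM, had log2 differences of -0.04 (95% interval -0.53 to 0.46) and 0.01 (-0.46 to 0.49). Whether reads of Mcm6 and Mcm7 were lost in counting was not tested. Pcna, the sliding clamp, was 108, 180 and 131 FPKM at day 10 and 108, 112 and 98 FPKM at day 14. Pair 1 was level, pairs 2 and 3 were -0.68 and -0.41, and the log2 difference was -0.37 (95% interval -0.88 to 0.14).

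**Figure D4:**
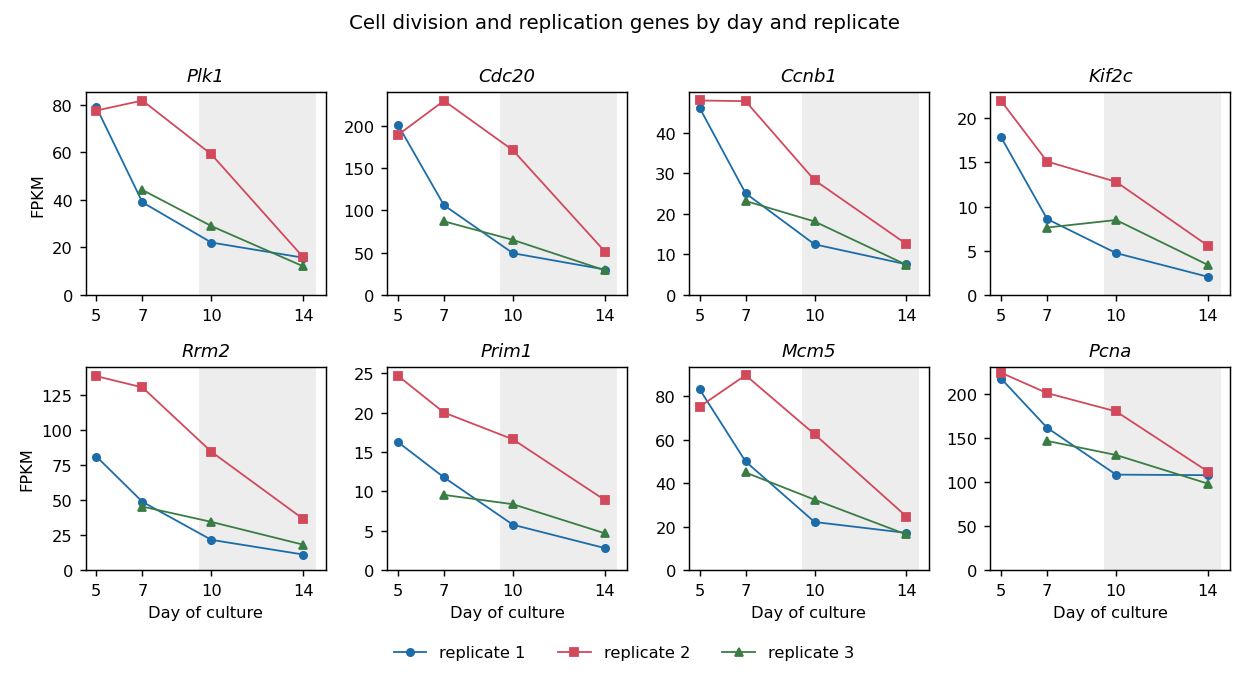
FPKM (y axes, from 0) of 4 mitosis genes and 4 replication genes by day of culture (x axes), 1 line per replicate, with days 10 and 14 shaded. Replicate 2 lies above the others at day 10, and each gene is lower at day 14 than at day 10 in each replicate, though Pcna in replicate 1 is close to level.

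Inhibitors of the cell cycle had no shared direction. Of 17 inhibitors and D cyclins, 13 were compared, with a median of -0.09. Of the 13, 1 was higher and 1 lower at an unadjusted p under 0.05, against 2.65% and 2.44% of all genes. Cdkn2c, an inhibitor of the G1 kinases, was lower in each replicate, at 4.50, 17.3 and 7.45 FPKM at day 10 and 2.09, 8.91 and 4.53 FPKM at day 14 (log2 difference -0.78, SE 0.17). Gadd45a, a stress-induced growth arrest gene, was 3.59, 1.55 and 1.70 FPKM at day 10 and 6.62, 2.17 and 5.25 FPKM at day 14 (log2 difference 0.75, SE 0.23). Each replicate was higher, and the groups overlapped through replicates 1 and 2. Of 13 p53 targets compared, 9 had a log2 difference below 0, with a median of -0.20. Of the 13, 4 were lower and 0 higher in all 3 pairs, against 11.1% and 12.1% of all genes, 2 were lower without overlap, against 3.25%, and 0 had an unadjusted p under 0.05. Without pairs 1, 2 and 3, 10, 11 and 13 of them were below 0, and 3 had an unadjusted p under 0.05 without pair 1. Perp, a membrane protein, Zmat3, which binds RNA, and Sesn2, which restrains growth under stress, had log2 differences of -0.47, -0.40 and -0.28, and of -0.26, -0.24 and -0.17 without pair 2.

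Genes of cytokines and innate defence were higher at day 14. Of 32 genes, 18 were compared and 14 were higher in all 3 pairs, against 12.1% of all genes. Another 6, among them S100a9 and Tlr2, were listed at 0 in all 14 libraries read, which is not read as absence. Of the 18, 9 were higher at an unadjusted p under 0.05, against 2.65% of all genes, 0 were lower at that p, and 3 were higher by at least 0.5 in each pair, against 0.546%. In 1 of them, Tnfaip3, the groups did not overlap, against 3.23% of all genes. The median log2 difference was 0.60, with pair medians of 0.51, 0.43 and 0.90. The count of 9 was 3 without the replicate block and 3 without pair 3. It was 9 without pair 2, and 17 or 18 of the 18 were higher without pair 1 or without pair 2, against 15 without pair 3. Of the 10 leukocyte markers, Cd68 was listed at 0 in all 14 libraries read, adult LG included, and gives no measurement. Adgre1 was listed at 0 in all 6 libraries, and Ptprc and Csf1r were at most 0.0123 and 0.0246 FPKM. Fcer1g, a chain of Fc receptors, was the 1 that passed the filter, at 0.646, 1.19 and 1.46 FPKM at day 10 and 1.54, 0.514 and 0.413 FPKM at day 14. Aif1, a macrophage gene outside that list and named after its values were seen, was 1.62, 0.339 and 0.679 FPKM at day 10 and 2.78, 1.54 and 1.49 FPKM at day 14, higher in each replicate, against 10.6 to 18.7 FPKM in adult LG. The part of leukocytes in the result was not tested.

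Lcn2 (lipocalin 2, which binds bacterial siderophores) had the smallest unadjusted p of the list, 0.000965. It was 2.03, 0.099 and 1.98 FPKM at day 10 and 6.03, 1.71 and 10.7 FPKM at day 14, a log2 difference of 1.5 (SE 0.22). Replicate 2 was lowest at both days, and its day 14 value did not reach the day 10 values of the other replicates. Pglyrp1, a bactericidal peptidoglycan-binding protein, was 13.2, 28.3 and 12.5 FPKM at day 10 and 25.2, 49.4 and 46.1 FPKM at day 14 (log2 difference 1.15, SE 0.25). Each replicate was higher, and only replicate 1 at day 14 lay below a day 10 value. Cd14, the co-receptor for bacterial lipopolysaccharide, was 197, 43.3 and 146 FPKM at day 10 and 253, 100.2 and 371 FPKM at day 14 (log2 difference 0.97, SE 0.25). Ccl20, a chemokine of epithelia, was 0.477, 3.66 and 1.46 FPKM at day 10 and 4.66, 5.38 and 3.30 FPKM at day 14 (log2 difference 1.07, SE 0.32). The difference was greatest in replicate 1 and smallest in replicate 2. The neutrophil chemokine Cxcl5, the most abundant member, was 364, 59.7 and 575 FPKM at day 10 and 546, 134 and 729 FPKM at day 14, higher in each replicate with overlapping groups. Csf2 and Il1a had log2 differences of 1.34 and 1.14, but pair 3 alone gave 2.73 and 2.35. Il1b was 0.303 to 0.830 FPKM at day 10 and 0.177 to 0.706 FPKM at day 14 (log2 difference -0.04, 95% interval -0.56 to 0.48).

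**Figure D5:**
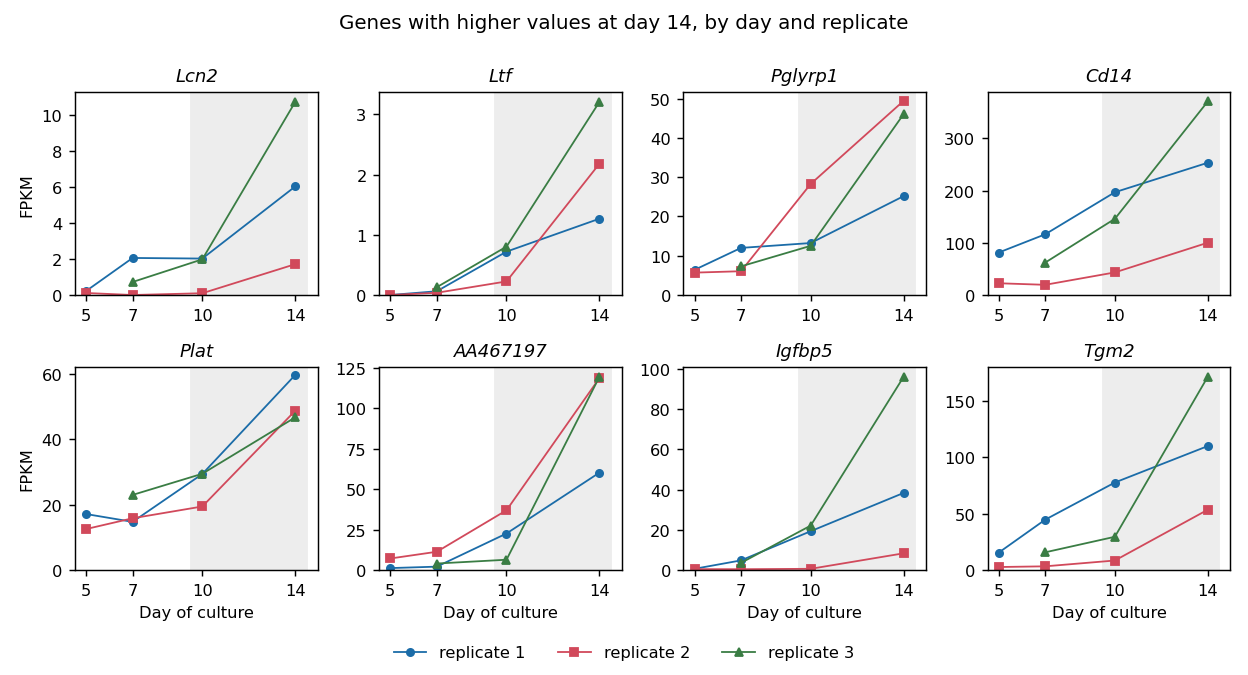
FPKM (y axes, from 0) of 8 genes by day of culture (x axes), 1 line per replicate, with days 10 and 14 shaded. Each replicate is higher at day 14 than at day 10 for all 8 genes, with no overlap between days for Ltf, Plat and AA467197.

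Genes of ducts and luminal epithelium lay mostly above 0, with few clear members. Of 24 genes, 14 were compared, 12 had a log2 difference above 0 and 4 were higher in all 3 pairs, against 12.1% of all genes. Of the 14, 3 were higher at an unadjusted p under 0.05, against 2.65% of all genes. This count was 1 without the replicate block, 1 without pair 2, 0 without pair 3 and 6 without pair 1. The median was 0.41. Pigr, the receptor that carries IgA across secretory epithelium, was 1.01, 0.419 and 2.61 FPKM at day 10 and 2.4, 1.15 and 7.24 FPKM at day 14 (log2 difference 0.85, SE 0.20). Each replicate was higher, and all 6 values lay far below the 158 to 446 FPKM of adult LG. Wfdc2, a secreted protease inhibitor of glandular epithelium, was 731, 403 and 536 FPKM at day 10 and 1003, 953 and 692 FPKM at day 14 (log2 difference 0.69, SE 0.25). Without pair 2 the difference of Wfdc2 was 0.41. The mucin Muc20 was 1.82, 4.26 and 0.976 FPKM at day 10 and 1.64, 15.8 and 5.14 FPKM at day 14, level in replicate 1 and higher in the other two. Krt18 had a log2 difference of 0.08 (95% interval -0.47 to 0.63) and Cldn3, a tight junction protein, of 0.04 (-0.41 to 0.49). Krt19, which the study used as a duct marker, was below the filter, at 0.853, 0.070 and 0.125 FPKM at day 10 and 1.03, 0.0606 and 0.714 FPKM at day 14. In adult LG it was 0 to 0.283 FPKM. The study reports staining for this protein in duct cells of the gland. Its low values here are therefore not read as low expression, and whether its reads were lost in counting was not tested.

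Few acinar and tear protein genes reached their level in the gland. Of 20 genes, 11 were compared, 2 were higher at an unadjusted p under 0.05, against 2.65% of all genes, and the median was 0.15. Ltf (lactotransferrin, an iron-binding secretory protein of tears), was 0.721, 0.226 and 0.804 FPKM at day 10 and 1.27, 2.18 and 3.21 FPKM at day 14. The groups did not overlap, and the log2 difference was 1.00 (SE 0.25, unadjusted p = 0.00954). The 3 adult LG libraries held 0.961, 1.10 and 6.65 FPKM. The day 14 values lay above adult LG 1 and 2, whose levels are on a higher scale, and below adult LG 3 alone. Adult LG 3 differed from the others, with a summed level of this list of 250400 FPKM against 1851000 and 1670000 FPKM. The other member at that p was Lcn2, which the innate list also holds. Aqp5, the water channel of acinar cells, was below the filter. It was listed at 0, 0.0779 and 0 FPKM at day 10 and 0, 0.270 and 0 FPKM at day 14. In adult LG it was 0.472 to 0.568 FPKM. The study reports strong staining for this protein in the secretory cells of the gland. The low values of Aqp5 in these files are therefore not read as low expression, in the gland or in the spheres. Whether its reads were lost in counting was not tested. The secretoglobin Scgb2b2 was listed at 0 in replicates 1 and 2 at both days and was 32.2 and 38.4 FPKM in replicate 3, against 75440 to 871600 FPKM in adult LG. Agr2, a disulfide isomerase of secretory cells, was 0.201 to 1.79 FPKM at day 10 and 0.261 to 2.78 FPKM at day 14, against 398 to 2975 FPKM in adult LG.

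Markers of basal and stem cells showed no shared direction. Of 17 genes, 10 were compared, 1 was lower at an unadjusted p under 0.05, against 2.44% of all genes, and the median was 0.12. The sign turned with 1 pair: without pair 3 the median was -0.12, and without pair 1 it was 0.32, with 8 of 10 genes higher and 2 at an unadjusted p under 0.05. Krt14 was 6.43, 15.7 and 4.41 FPKM at day 10 and 4.66, 8.18 and 3.35 FPKM at day 14. Each replicate was lower and the groups overlapped, with a log2 difference of -0.52 (SE 0.19, unadjusted p = 0.0399). Its value was -0.35 with an unadjusted p of 0.212 without pair 2, and the unadjusted p was 0.315 without the replicate block. Krt5, its usual partner, was 0.826, 2.73 and 0.422 FPKM at day 10 and 0.461, 2.05 and 1.54 FPKM at day 14, lower in replicates 1 and 2 and higher in replicate 3 (log2 difference 0.08, 95% interval -0.66 to 0.81). Trp63 and Nes were below the filter, at 0.0827 to 0.310 and 0 to 0.0360 FPKM at day 10 and 0.0401 to 0.750 and 0 to 0.0938 FPKM at day 14. Krt5 rested on 8 to 46 recovered reads per library. By RT-PCR the study found Krt5 high, and Trp63 and Nes detected, in its spheres. The low values of Krt5, Trp63 and Nes are therefore not read as low expression, and whether their reads were lost in counting was not tested. Krt17 was the most abundant keratin of this list, at 2771, 2817 and 2427 FPKM at day 10 and 3079, 1580 and 3011 FPKM at day 14, lower in replicate 2 alone. Krt15, a basal keratin, was 407 FPKM at day 10 and 719 FPKM at day 14 in replicate 2, and 5.08 to 18.7 FPKM in the 4 other libraries. Lgr5, a receptor for Wnt-enhancing R-spondins that marks several epithelial stem cells, was 1.90 and 5.37 FPKM in replicate 2 and at most 0.448 FPKM in the others. Acta2, a contractile actin of myoepithelial cells, was 32.5, 1.02 and 82.8 FPKM at day 10 and 24.9, 2.71 and 180 FPKM at day 14, lower in replicate 1 and higher in the other two.

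Proteases that remodel the matrix and their inhibitors lay above 0 in most members. Of 26 genes, 18 were compared, 8 were higher and 1 was lower in all 3 pairs, 3 were higher at an unadjusted p under 0.05, and the median was 0.39. The shares of all genes were 12.1% higher and 11.1% lower in all 3 pairs, and 2.65% higher at that p. The count of 3 was 1 without the replicate block, 5 without pair 1 or pair 2, and 1 higher and 1 lower without pair 3. The median was 0.50, 0.24 and 0.18 without pairs 1, 2 and 3. Plat, the tissue-type plasminogen activator, was 29.4, 19.45 and 29.5 FPKM at day 10 and 59.7, 48.8 and 46.7 FPKM at day 14. The groups did not overlap and the replicates lay close together at both days, with a log2 difference of 0.98 (SE 0.19, unadjusted p = 0.00335). Without pair 1, 2 or 3 it was 0.97, 0.82 and 1.14. Serpinb6b, a serpin, was 10.1, 6.26 and 11.8 FPKM at day 10 and 12.8, 14.0 and 15.8 FPKM at day 14, without overlap (log2 difference 0.59, SE 0.21), and its difference was 0.36 without pair 2. Tmprss6, a membrane serine protease, was 1.31, 0.0814 and 0.290 FPKM at day 10 and 3.73, 0.317 and 1.81 FPKM at day 14. Mmp9, a gelatinase, was 0.224 to 0.980 FPKM at day 10 and 0.444, 0.540 and 7.96 FPKM at day 14, with most of the difference in replicate 3.

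Of 28 matrix, laminin and integrin genes, 17 were compared, and 2 were higher at an unadjusted p under 0.05, against 2.65% of all genes. The median was 0.23, with pair medians of -0.23, 0.18 and 0.64. The count was 4 without pair 2, and without pair 3 it was 0, with a median of 0.05. Ecm1, a secreted matrix glycoprotein, was 1.17, 5.25 and 1.01 FPKM at day 10 and 5.07, 6.11 and 5.49 FPKM at day 14. Replicates 1 and 3 at day 14 lay at the level that replicate 2 had at both days. Loxl1, which cross-links elastin, was 4.35, 0.827 and 1.72 FPKM at day 10 and 8.30, 1.60 and 7.26 FPKM at day 14, higher in each replicate. The fibroblast marker Col1a1 was 0.336 to 0.599 FPKM at day 10 and 0.377 to 0.825 FPKM at day 14.

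In the interferon list and in that of glycolysis and hypoxia the pairs differed widely, and pair 3 had the highest median. The 28 interferon response genes compared had pair medians of -0.56, 0.38 and 1.17, 1 was higher in all 3 pairs and 0 had an unadjusted p under 0.05. Their median was 0.31, and it was -0.07 without pair 3, where 10 of 25 genes were higher. Without pair 1 it was 0.79, with 26 of 27 genes higher and 13 at an unadjusted p under 0.05. Of 21 genes of glycolysis and hypoxia compared, 8 were higher in all 3 pairs, against 12.1% of all genes. Of the 21, 3 were higher without overlap, against 3.23%, and 2 were higher at an unadjusted p under 0.05, against 2.65%. The median was 0.29, and 17 of 21 were above 0. Without pair 2 these were 0.43 and 20 of 21, and without pair 3 they were 0.02 and 11 of 21. The count of 2 was 6, 1 and 0 without pairs 1, 2 and 3. Vegfa, the growth factor for vessels that low oxygen induces, was 40.2, 38.6 and 35.1 FPKM at day 10 and 52.6, 45.3 and 134 FPKM at day 14. The groups did not overlap, but the log2 difference of 0.83 was 0.30 without pair 3. Bnip3 was 24.6, 33.2 and 26.2 FPKM at day 10 and 26.6, 49.6 and 98.3 FPKM at day 14, and Car9, a carbonic anhydrase, 8.19, 2.20 and 7.02 FPKM at day 10 and 8.47, 3.85 and 31.8 FPKM at day 14. P4ha2, a collagen prolyl hydroxylase, was more even, at 2.36, 1.46 and 1.93 FPKM at day 10 and 3.18, 2.68 and 5.30 FPKM at day 14, without overlap (log2 difference 0.67, SE 0.22). The glycolytic enzyme Tpi1 was 1.23, 1.84 and 1.76 FPKM at day 10 and 2.08, 3.02 and 3.15 FPKM at day 14, also without overlap. It rested on 30 to 74 recovered reads per library. Whether reads of Tpi1 were lost in counting was not tested.

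Of 11 genes of MHC class II, 3 were compared and all 3 were higher in all 3 pairs, against 12.1% of all genes. Of the 3, 2 were higher at an unadjusted p under 0.05, against 2.65% of all genes. Without the replicate block, without pair 2 or without pair 3, 0 had an unadjusted p under 0.05. H2-Ab1, a class II chain that presents peptides to T cells, was 0.829, 0.397 and 2.33 FPKM at day 10 and 0.891, 3.36 and 46.1 FPKM at day 14, so that replicate 3 held nearly all of it. Its log2 difference of 1.84 (SE 0.70) was 0.85 without pair 3. The invariant chain Cd74 was 1.52, 0.276 and 0.902 FPKM at day 10 and 2.23, 0.877 and 1.37 FPKM at day 14. The leukocyte marker sum in replicate 3 was 1.78 FPKM at day 10 and 1.77 FPKM at day 14, but its members moved apart. In that replicate Cd79a was 0.317 FPKM at day 10 and 1.16 FPKM at day 14, while Fcer1g was lower at day 14. The part of leukocytes in the H2-Ab1 difference was not tested.

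The stress and metabolic lists were mixed. Of 18 amino acid stress genes compared, 2 were higher and 2 lower at an unadjusted p under 0.05, against 2.65% and 2.44% of all genes. The median of the 18 was -0.05. In 4 of them all day 14 libraries lay below all day 10 libraries, against 3.25% of all genes, and these were Phgdh, Asns, Sesn2 and Psph. Without pair 2, 1 was higher and 0 lower at an unadjusted p under 0.05, and without pair 3, 0 higher and 1 lower. Phgdh, the first enzyme of serine synthesis, was 68.8, 90.9 and 101 FPKM at day 10 and 65.5, 48.1 and 55.1 FPKM at day 14 (log2 difference -0.61, SE 0.23). Psat1, the next enzyme of that path, was 37.9, 77.8 and 41.5 FPKM at day 10 and 19.4, 37.8 and 40.1 FPKM at day 14, about level in replicate 3 (log2 difference -0.67, SE 0.25). Nupr1, a stress-induced chromatin regulator, was 22.9, 9.61 and 20.3 FPKM at day 10 and 52.1, 12.2 and 41.7 FPKM at day 14 (log2 difference 0.82, SE 0.22). Of 13 oxidative and iron stress genes compared, 1 had an unadjusted p under 0.05, against 5.09% of all genes. This was Nqo1, a quinone reductase, at 36.6, 129 and 63.9 FPKM at day 10 and 27.2, 48.6 and 34.1 FPKM at day 14 (log2 difference -0.90, SE 0.23). Of 20 cholesterol synthesis genes and 12 ER chaperones compared, 0 had an unadjusted p under 0.05, and their medians were -0.01 and 0.06.

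Signalling lists held few members with a shared direction. The medium holds EGF and Wnt3A at both days. Of 16 genes of ERK feedback and EGF ligands compared, 0 had an unadjusted p under 0.05, and the pair medians were 0.54, -0.64 and 0.69. The 0 rested on pair 2: without it, 6 of 16 were higher at that p, with a median of 0.47. The median of 0.30 was -0.04 without pair 1, with 2 higher and 1 lower at that p, and 0.01 without pair 3. Of 13 Wnt targets and regulators compared, 1 had an unadjusted p under 0.05, against 5.09% of all genes. This was Sp5, a transcription factor that Wnt signals induce, at 2.21, 0.618 and 1.60 FPKM at day 10 and 5.13, 1.77 and 6.07 FPKM at day 14. Each replicate was higher, by 0.94, 0.77 and 1.45 on the log2 scale, and the log2 difference was 1.05 (SE 0.21, unadjusted p = 0.00364). The median of the Wnt list was 0.02. Of 8 retinoic acid genes and 5 Notch genes compared, 0 had an unadjusted p under 0.05. Of 4 proliferins, growth factors related to prolactin whose copies are alike enough to share reads, 2 were compared. Prl2c3 was 32.1, 72.7 and 53.1 FPKM at day 10 and 11.5, 15.5 and 41.0 FPKM at day 14, lower in each replicate (log2 difference -1.31, SE 0.36).

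Genes of the cornified envelope and of squamous epithelium were carried by replicate 2. Their summed level was 21.5, 5455 and 41.3 FPKM in replicates 1 to 3 at day 10 and 24.7, 2398 and 182 FPKM at day 14. Of the 40 genes in the list, 13 were listed at 0 in all 14 libraries read, which is not read as absence. Of 20 genes compared, 0 had an unadjusted p under 0.05, and the pair medians were -0.04, -0.96 and 0.04. In limma-voom with the replicate block, 3 of 20 were higher and 9 lower at an unadjusted p under 0.05, and without the block 0 were. Spink5, an epidermal protease inhibitor, was 1.32, 705 and 8.65 FPKM at day 10 and 0.446, 257 and 8.58 FPKM at day 14. Klk6, a kallikrein protease, was 1.42, 61.7 and 2.67 FPKM at day 10 and 1.04, 12.7 and 2.15 FPKM at day 14. The log2 differences of Spink5 and Klk6, -0.71 and -0.89, were -0.35 and -0.24 without pair 2. Without pair 2 the median of the list was 0.21, over the 11 genes that then passed the filter.

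The largest single differences among genes at an unadjusted p under 0.05 were of several kinds. None of the 24 named by this rule passed the adjusted threshold, with adjusted p-values of 0.918 to 0.959 in limma. AA467197, a small protein-coding gene also known as Nmes1 that epithelial and immune cells express, was 22.6, 36.9 and 6.34 FPKM at day 10 and 60.2, 119 and 119 FPKM at day 14. The groups did not overlap, the log2 difference was 2.36 (SE 0.55), and without pair 3 it was 1.52. Igfbp5, which binds insulin-like growth factors, was 19.3, 0.584 and 22.1 FPKM at day 10 and 38.3, 8.29 and 96.0 FPKM at day 14, higher in each replicate (log2 difference 1.86, SE 0.33). Tgm2, tissue transglutaminase, which cross-links proteins, was 77.5, 8.40 and 29.4 FPKM at day 10 and 110, 53.4 and 171 FPKM at day 14 (log2 difference 1.84, SE 0.45). The difference was smallest in replicate 1. Ccl9, a chemokine, was 6.68, 0.384 and 0.949 FPKM at day 10 and 6.93, 3.62 and 24.2 FPKM at day 14, and its log2 difference of 1.83 was 0.89 without pair 3. H2-Ab1 completed the protein-coding genes among the 12 largest positive differences.

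The 7 other positive differences and all 12 largest negative ones were short or non-coding RNAs, apart from 1 assembled locus with no annotated type or length. The former were Mir7090, Mir7078, Mir466i, Mir7231, Mir709, Gm16265 and Gm16175. The latter were Mir6979, Mir3075, Mir6937, Mir6909, Mir26a-1, Mir1934, Gm25772, Gm47441, Gm23287, Gm23105, Snora69 and that locus. Those with an annotated length were 56 to 248 bases long and rested on at most 11 recovered reads in any of the 6 libraries. Poly-A selected libraries are not made to hold miRNAs, snRNAs or snoRNAs, and whether these reads came from them or from longer transcripts over the same bases was not tested.

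Agreement of the pairs gave a further view of the whole table. In 86 genes (0.546%) each of the 3 pairs was higher by at least 0.5, and in 89 (0.565%) each was lower. Of the 89, 39 were protein-coding, and 22 were in the mitosis or replication lists. Of the 86, 30 were protein-coding, 0 were in those lists and 3 were in the innate defence list. Among all 15759 genes compared, 8524 symbols were protein-coding, so that protein-coding genes were less frequent in both sets than among all genes. The mitosis, replication and innate defence lists held 32, 34 and 18 of the genes compared. The genes in the rest of this paragraph were named after their values were seen. Among the 39 were further genes of the cell cycle: Pclaf, a partner of Pcna, was 10.5, 25.8 and 16.7 FPKM at day 10 and 4.80, 13.9 and 8.38 FPKM at day 14. Cdca5, a factor of sister chromatid cohesion, was 9.5, 19.9 and 13.4 FPKM at day 10 and 6.38, 9.24 and 5.82 FPKM at day 14, without overlap. Pbk, Haspin, Fam83d, Oip5 and Prim2 were also lower in each pair. Among the 30, Wfdc18, a small secreted protein with a whey acidic protein domain, was 919, 46.0 and 496 FPKM at day 10 and 1455, 106 and 2054 FPKM at day 14. In adult LG it was 2691 to 7875 FPKM. Lbp, which hands lipopolysaccharide to Cd14, was 8.24, 0.457 and 9.55 FPKM at day 10 and 17.0, 2.05 and 25.4 FPKM at day 14. C1s1, a complement protease, was 2.24, 2.49 and 3.51 FPKM at day 10 and 4.09, 4.31 and 9.96 FPKM at day 14, without overlap. Tnfrsf1b, a receptor for tumour necrosis factor, was 10.1, 2.14 and 8.36 FPKM at day 10 and 23.7, 4.89 and 13.2 FPKM at day 14, higher in each replicate.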

How the data were processed

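Poly-A selected RNA was sequenced from passage 2 LGSC spheres and LG. The authors deposited 1 table per library of values per gene, aligned with HISAT2 2.0.5 to NCBIM37 and counted with featureCounts 1.5.0-p3, per the labels. The labels do not name the unit: the deposited values were taken as FPKM from their size and their dependence on gene length. Symbols and lengths came from the GENCODE annotation given here. FPKM times length divided by the step of 1 read gave whole reads for 93.23 to 93.46% of values up to 1000 reads (within 0.01), and these recovered reads, 7201131 to 7897255 per library, set the precision.

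Groups and replicate numbers came from the labels. Genes averaging 0.5 FPKM or more were fitted as log2(FPKM + 1) with limma 3.58.1 in R 4.3.3 (eBayes with trend, replicate number as a block, Benjamini-Hochberg adjustment over 15759 genes, threshold 0.05), after a test on simulated data. Fold changes of log2(FPKM + 1) understate those of low genes. The simulated data held planted changes larger than most differences described here. The fit found 130 of 180 of them (72.2%), and 7.14% of its 140 calls were false. The block follows the replicate numbers in the labels. Deviations from the group means correlated at 0.366, 0.680 and 0.357 for equal numbers, but also at 0.300 and 0.359 between numbers 1 and 3, so the pairing is clear for replicate 2 only. Exact tests of single values cannot go below p = 0.25 for 3 pairs or 0.10 for 3 against 3 (two-sided) and were not run.

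The members and gene lists were chosen with earlier results of these data known, and the lists got no test. Named genes were the 12 largest differences in each direction with an unadjusted p under 0.05, a mean of at least 1 FPKM and 1 direction in all 3 pairs (none passed the adjusted threshold), the 4 members of lowest p in each list with a mean of at least 1 FPKM, and the study's markers Krt14, Krt5, Trp63, Nes, Krt19, Aqp5, Ltf and Mki67. List members outside this rule were named after their values were seen. Alternatives were the block, pseudocount, filter, scaling, all 11 sphere libraries, limma-voom on recovered reads and leaving out each pair.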

Additional observations from a re-analysis of the deposited data

How the results depend on the processing

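No alternative gave a gene with an adjusted p under 0.05. The smallest adjusted p was 0.921 without the replicate block, 0.958 with a pseudocount of 0.1, 0.886 with no filter, 0.677 at a mean of at least 5 FPKM, 0.901 after rescaling, 0.294 with all 11 libraries, 0.243 in limma-voom, and 0.405, 0.937 and 0.89 without pairs 1, 2 and 3. Genes at an unadjusted p under 0.05 numbered 802 with the block, 403 without it, 247 at 5 FPKM or more, and 466 to 1878 with a pair left out. All 11 libraries and limma-voom without the replicate block, both chosen after seeing the data, gave 515 and 210. On the FPKM scale the replicate block cannot move a list median, since each replicate number is present at both days.

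The mitosis median of -0.74 was -0.90 with a pseudocount of 0.1, -0.61 with no filter, -0.88 at 5 FPKM or more, -0.85 in limma-voom and -0.86 in limma-voom without the block. The cytokine and innate defence median of 0.60 was 0.94 with a pseudocount of 0.1 and 1.02 in limma-voom with or without the block. These scales weigh low genes more. The matrix protease median was 0.71 in limma-voom without the block. The MHC class II median was 0.16 with no filter and 1.84 at 5 FPKM or more, where 1 gene was left, and the proliferin median was -0.21 with no filter. In limma-voom with the block the Wnt and retinoic acid medians were 0.29 and 0.55. With a pair left out, the Wnt median ran from -0.13 to 0.13, the retinoic acid median from 0.00 to 0.26 and the Notch median from -0.11 to 0.33; the cause was not tested. The median also took both signs with a pair left out for the basal (-0.12 to 0.32), cornified (-0.50 to 0.21), interferon (-0.07 to 0.79), ERK (-0.04 to 0.47), cholesterol (-0.33 to 0.22), amino acid stress (-0.07 to 0.04), ER chaperone (-0.01 to 0.13) and oxidative stress (-0.02 to 0.06) lists. In limma-voom with the block, 9 of 19 protease genes were higher at an unadjusted p under 0.05. So were 9 of 22 glycolysis and hypoxia genes and 6 of 16 ductal genes. The share of all genes at that p, in both directions together, was 6.27%. In limma-voom without the block these counts were 1, 2 and 1, and that share was 1.79%. On the FPKM scale with the block the counts were 3, 2 and 3. Of the named genes, 5 took both signs with a pair left out: Sdf2l1 (-0.66 to 0.13), Rarg (-0.07 to 0.38, and -0.02 without pair 3), Nrarp (-1.08 to 0.30), Krt5 (-0.30 to 0.27) and Rdh10 (-0.27 to 0.67). With 7201131 reads or more per library, genes under about 1 FPKM rest on few reads.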

Other observations

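These genes were named after their values were seen, and none passed the adjusted threshold. Spp1 (osteopontin, a secreted phosphoprotein) was 1140, 94.9 and 1998 FPKM in replicates 1 to 3 at day 10 and 3416, 84.4 and 2901 FPKM at day 14, higher in replicates 1 and 3 and about level in replicate 2. Flt1, a receptor for Vegfa, was 22.2, 3.79 and 31.1 FPKM at day 10 and 50.8, 3.53 and 54.9 FPKM at day 14, again higher in replicates 1 and 3 only, while the 7 other endothelial markers summed to less than 1 FPKM in each of the 6 libraries. Gsta4, a glutathione transferase that detoxifies lipid aldehydes, was 301, 3726 and 425 FPKM at day 10 and 280, 1693 and 244 FPKM at day 14 (log2 difference -0.68, SE 0.26), with pair differences of -0.11, -1.14 and -0.80. Gprc5a, an orphan receptor of epithelia, was 37.9, 47.8 and 26.2 FPKM at day 10 and 43.6, 126 and 72.5 FPKM at day 14 (log2 difference 1.00, SE 0.29). C3, the central complement protein, was 152, 18.6 and 139 FPKM at day 10 and 215, 45.2 and 220 FPKM at day 14, higher in each replicate (log2 difference 0.79, SE 0.21).

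The summed level of the 32 cytokine and innate defence genes was 323 and 134 FPKM in the 2 libraries of day 5, 612, 154 and 335 FPKM in replicates 1 to 3 at day 7, 675, 272 and 852 FPKM at day 10 and 1008, 436 and 1396 FPKM at day 14. Replicate 1 at day 7 lay above replicate 2 at day 14. Lcn2 was 0.224 and 0.112 FPKM in the 2 libraries of day 5 and 2.06, 0 and 0.724 FPKM at day 7, against 1.71 to 10.7 FPKM at day 14, so that days 7 and 14 overlapped. Pglyrp1 was 6.40 and 5.70 FPKM at day 5 and 12, 6.06 and 7.29 FPKM at day 7, against 25.2 to 49.4 FPKM at day 14, without overlap. Days 5 and 7 were not tested against day 14 here.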
